A study of Mus musculus with 6 samples.

Results

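The genes described here encode the proteins that neutrophils and eosinophils store in their granules, measured in mouse DN1 thymocytes, the earliest stage of T-cell development in the thymus. The 10 members were taken by gene symbol, and all 10 were found, once each, among 24318 symbols in the 6 tables. They are 4 early granule genes (Mpo, Elane, Prtn3 and Ctsg), 5 late genes (Ngp, Camp, Ltf, S100a8 and S100a9) and the eosinophil gene Prg2. They were chosen with their levels in these 6 libraries known, so the values of the members are given as a description, with no test. The study set 3 libraries labelled Tle134-deficient against 3 WT libraries, in RNA-seq of cells that were sorted for CD44 after those carrying CD25, CD8a, TCRb or a lineage marker had been gated out. All mice were 5 to 8 weeks old. Tle1, Tle3 and Tle4 encode corepressors of the Groucho family. Not given in the sources used here are the alleles, the strain, any Cre driver, the lineage antibodies and whether each library came from its own animal.

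Granulocytes make their granules in a fixed order as they mature. At the promyelocyte stage they fill the primary, or azurophil, granules with myeloperoxidase (Mpo) and with serine proteases, namely neutrophil elastase (Elane), proteinase 3 (Prtn3) and cathepsin G (Ctsg), and the same genes are already transcribed in granulocyte-monocyte progenitors. Later, at the myelocyte and metamyelocyte stages, they turn to the secondary granule proteins lactoferrin (Ltf), cathelicidin (Camp) and neutrophilic granule protein (Ngp), while S100a8 and S100a9, whose products pair as calprotectin in the cytosol, remain abundant into the mature cell. Prg2 encodes the major basic protein of eosinophil granules and is also known from basophils and mast cells.

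In the mm9 coordinates of the tables, Mpo lies at chr11:87607286-87617914, with a start that varies slightly between libraries. Prtn3 (chr10:79342412-79345917) and Elane (chr10:79349057-79350961) are neighbours on chromosome 10, and Ctsg lies at chr14:56718718-56721411. Camp (chr9:109749891-109751970), Ngp (chr9:110322312-110325516) and Ltf (chr9:110921796-110945270) lie on chromosome 9, S100a8 (chr3:90472993-90473956) and S100a9 (chr3:90496552-90499643) beside each other on chromosome 3, and Prg2 at chr2:84820618-84823789. The limits of Elane, Ctsg, Camp and Prg2 also differ from these in some libraries. Each value is for the locus that carries the gene's symbol. In 9 of the 60 pairs of member and library, a short locus without a symbol also lay within the member, and its FPKM was not added because FPKM is scaled to each locus's own length. These were Mpo in labelled-deficient replicate 2 (96270 FPKM) and WT replicate 3 (309213), Prtn3 in labelled-deficient replicate 2 (65.5) and WT replicate 3 (105), Ctsg in WT replicates 1 to 3 (24.4, 94636 and 24.3), Ltf in labelled-deficient replicate 1 (53599.9) and Ngp in WT replicate 2 (19.2).

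The genotype labels were checked first on the targeted genes. Tle1 had 11.5, 11.3 and 11.1 FPKM (fragments scaled to transcript length and to the mapped fragments of the library) in the libraries labelled Tle134-deficient and 1.37, 1.19 and 3.61 FPKM in WT, Tle3 had 82.6, 77.5 and 58.6 against 26.1, 35.9 and 23.4 FPKM, and Tle4 had 27.8, 35.2 and 17.8 against 17.9, 18.8 and 14.5 FPKM. None of the 3 was lower in the libraries labelled deficient and none passed over all genes (limma adjusted p = 0.0954 for Tle1, 0.234 for Tle3 and 0.726 for Tle4), and whole-gene values can miss a deletion of single exons, so the group is named by its label throughout. Of the sort markers, Ptprc (CD45) and Cd44 were at 27.5 FPKM or more in every library, Il2ra (CD25) at 1.69 to 7.36 FPKM and Cd8a at 0 to 2.48 FPKM. Cd4 was at 7.93 to 29.6 FPKM in the libraries labelled deficient and at 4.03 to 19.5 FPKM in WT. DN1 cells are defined by the absence of CD4 on the surface, which RNA does not measure. The gate as described does not name CD4, and whether the lineage antibodies included it is not given. The deposited intervals imply 1.51e+06 to 4.34e+06 fragments in loci with a symbol for the libraries labelled deficient and 1.42e+06 to 3.24e+06 for WT. Replicate 3 of each group stood apart on the second principal component of all genes tested, at -59.1 in labelled-deficient replicate 3 and -47.1 in WT replicate 3 against 2.31 to 61.0 in the other libraries.

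Transcripts of the early granule genes were present in all 6 libraries and differed more within each group than between the groups. Mpo, the peroxidase of the azurophil granule, had 53.7, 76.2 and 589 FPKM in labelled-deficient replicates 1 to 3 and 84.0, 232 and 257 FPKM in WT replicates 1 to 3. Elane had 12.0, 17.6 and 266 FPKM in the libraries labelled deficient against 19.3, 35.5 and 142 FPKM in WT. Labelled-deficient replicate 3 was the highest library for both genes and WT replicate 3 the next, while labelled-deficient replicates 1 and 2 lay below every WT library. Prtn3 had 13.9, 15.3 and 142 FPKM in the libraries labelled deficient against 8.90, 19.8 and 59.0 FPKM in WT. Ctsg had 1.83, 20.0 and 146 FPKM against 9.63, 18.5 and 87.3 FPKM in WT. The same 2 libraries thus led for all 4 early genes, and for each of them the groups overlapped. Replicate 3 of each group gave the 2 highest values, in either order, for 20.8% of the 11063 genes tested. In bulk RNA, fewer cells of a type and less RNA per cell cannot be told apart.

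**Figure D1:**
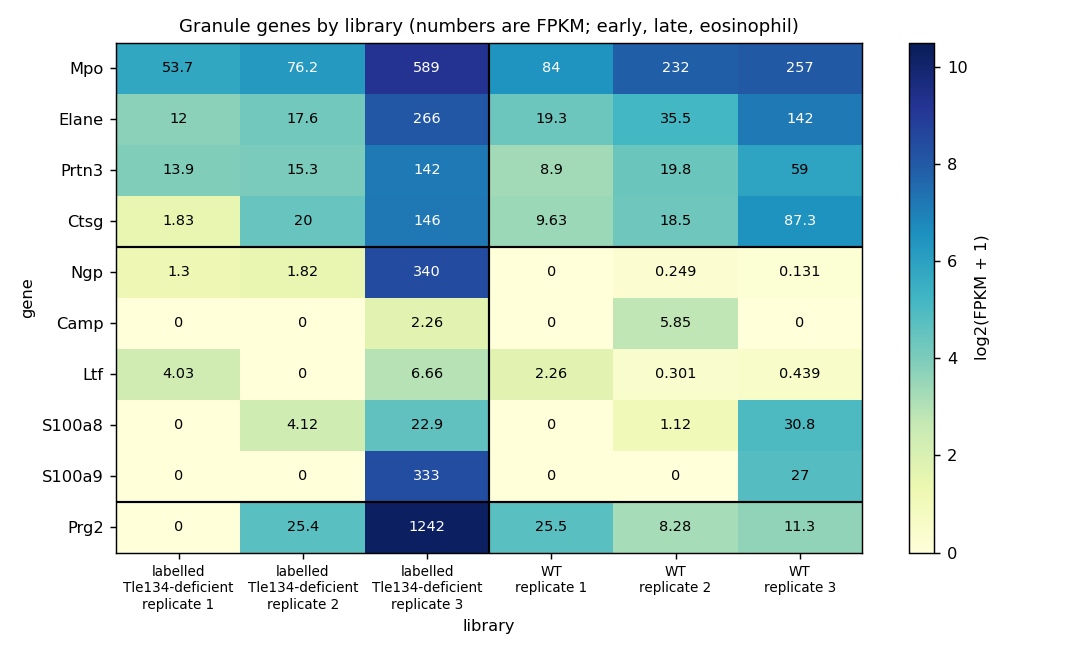
FPKM of the 10 granule genes (rows, grouped as early, late and eosinophil) in the 6 libraries (columns), with colour for log2(FPKM + 1) and the FPKM printed in each cell. The early genes are above 0 in every library, whereas Ngp, S100a9 and Prg2 reach 340.0, 333 and 1242 FPKM in labelled-deficient replicate 3.

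In FPKM the early genes averaged as follows. Mpo stood at 239.6 ± 303 in the libraries labelled deficient and 191 ± 93.5 in WT (SD, n = 3 each). For Elane the means were 98.6 ± 145 in the libraries labelled deficient and 65.5 ± 66.4 in WT. For Prtn3 they were 57.0 ± 73.5 in the libraries labelled deficient and 29.2 ± 26.3 in WT, and for Ctsg 55.8 ± 78.2 against 38.5 ± 42.5. In the libraries labelled deficient each SD exceeded its mean. The mean of log2(FPKM + 1) over the 4 early genes was 0.11 lower in the libraries labelled deficient, with a within-group SD of 1.78. Without labelled-deficient replicate 3 the difference was -1.34, and without labelled-deficient replicate 1 it was 0.75.

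Within a library the order of the early genes could be read from the deposited bounds. Mpo was the highest of the 4 in every library, with bounds clear of the next gene, and made up 65.9%, 59.0% and 51.5% of their summed FPKM in labelled-deficient replicates 1 to 3 and 68.9%, 75.9% and 47.2% in WT replicates 1 to 3. Elane came second in labelled-deficient replicate 3 and in the 3 WT libraries. In labelled-deficient replicates 1 and 2, Elane and its neighbour in that order had overlapping bounds. Mpo rested on 602 to 2961 implied fragments per library. The lowest value, that of Ctsg in labelled-deficient replicate 1, rested on 7 implied fragments with bounds of 0.447 to 3.22 FPKM.

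**Figure D2:**
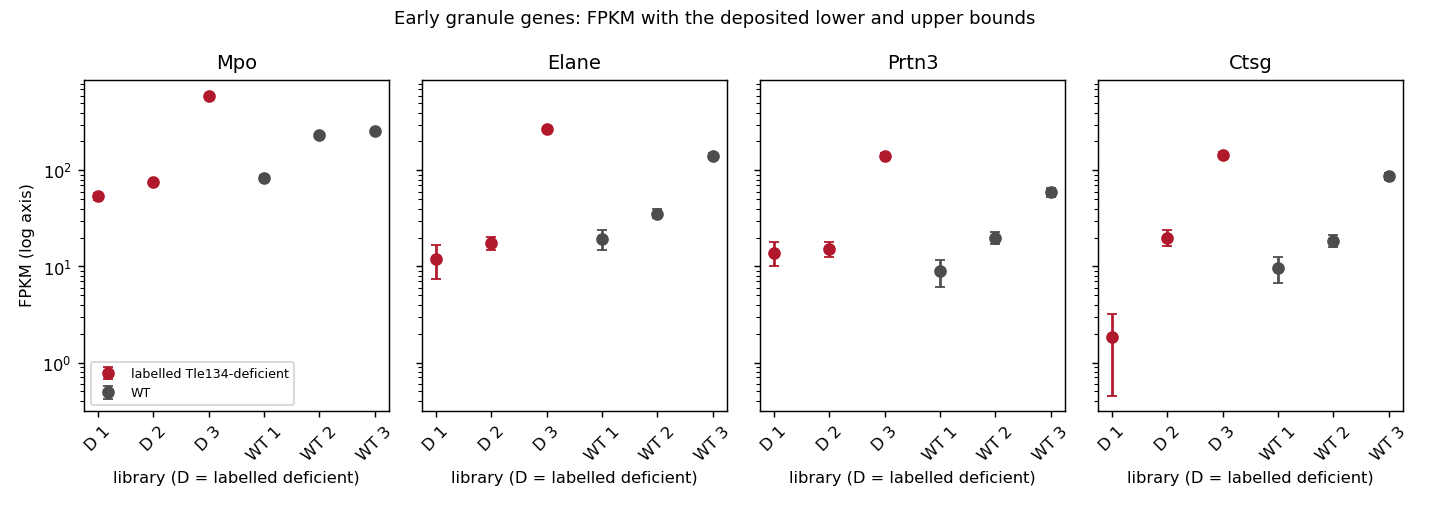
FPKM of Mpo, Elane, Prtn3 and Ctsg (log axis) in each library, with bars for the deposited lower and upper bounds, the libraries labelled deficient at the left of each panel (D) and WT at the right. The third replicate is the highest of its group in all 4 panels, and Ctsg in labelled-deficient replicate 1 has the widest bounds in relation to its level.

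The late genes showed another pattern: each was listed at 0, or at a few FPKM, in most libraries, and 3 of the 5 had their highest value in labelled-deficient replicate 3. Every locus carries the status OK, so no 0 is marked as a failed estimate; whether any is one was not tested, and no means are given for genes with a 0. Ngp, whose product is related to the cathelicidins, had 1.30, 1.82 and 340.0 FPKM in the libraries labelled deficient and 0, 0.249 and 0.131 FPKM in WT. It was the only member whose groups did not overlap, and they would overlap if the 19.2 FPKM of the unnamed locus within Ngp in WT replicate 2 were added. Such separation with the higher values in the libraries labelled deficient was seen for 8.67% of all genes tested, and with the lower values there for 6.56%, which holds no member. Nothing is read from this, since Ngp was chosen on these values, and the values below 2 FPKM rested on 1 to 16 implied fragments. S100a9 had 0, 0 and 333 FPKM in the libraries labelled deficient and 0, 0 and 27.0 FPKM in WT. Its partner S100a8 had 0, 4.12 and 22.9 FPKM against 0, 1.12 and 30.8 FPKM in WT. Both calprotectin genes were thus at 22.9 FPKM or more in replicate 3 of each group and at or under 4.12 FPKM elsewhere.

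The late genes did not keep 1 ratio to each other. S100a9 stood at 14.5 times S100a8 in labelled-deficient replicate 3 and at 0.875 times S100a8 in WT replicate 3. Those S100a8 values rested on 53.9 implied fragments in labelled-deficient replicate 3 and 42.4 in WT replicate 3, and the S100a9 values on 1001 and 61.7. Ngp was level with S100a9 in labelled-deficient replicate 3, at 340.0 and 333 FPKM, but in WT replicate 3 Ngp was down to 1 implied fragment while S100a9 had 27.0 FPKM. Ltf, the iron-binding protein of secondary granules, had 4.03, 0 and 6.66 FPKM in the libraries labelled deficient against 2.26, 0.301 and 0.439 FPKM in WT. Camp, the precursor of the only mouse cathelicidin, had 0, 0 and 2.26 FPKM against 0, 5.85 and 0 FPKM. In labelled-deficient replicate 3, Ngp was therefore 51.0 times Ltf and 150.5 times Camp. Camp was the 1 late gene with its highest value in WT replicate 2. In that library its locus ran to base 109752205, beyond the end at 109751970 in the others.

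The sequences upstream of 2 early and 2 late genes are shown because the early genes followed each other across libraries while Ngp and S100a9 reached similar levels in labelled-deficient replicate 3. Promoters of 9 members were matched by symbol in RefSeq (build GRCm38.p6, not the mm9 of the deposited files). Each line gives the 250 bases before the RefSeq start, at chr11:87793534-87793783 (plus strand) for Mpo, chr10:79886062-79886311 (plus strand) for Elane, chr9:110419558-110419807 (plus strand) for Ngp and chr3:90695722-90695971 (minus strand) for S100a9, written 5′ to 3′ on the gene's strand. Capitals mark matches, on either strand, to a C/EBP motif (TTGCNNAA), a Runx core (TGTGGT) or an Ets/PU.1 motif (AGGAAG).
Mpo: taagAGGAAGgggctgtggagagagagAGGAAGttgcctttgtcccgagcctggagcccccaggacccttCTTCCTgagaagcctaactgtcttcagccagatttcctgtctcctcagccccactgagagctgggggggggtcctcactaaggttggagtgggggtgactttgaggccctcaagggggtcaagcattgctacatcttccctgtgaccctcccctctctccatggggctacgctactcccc
Elane: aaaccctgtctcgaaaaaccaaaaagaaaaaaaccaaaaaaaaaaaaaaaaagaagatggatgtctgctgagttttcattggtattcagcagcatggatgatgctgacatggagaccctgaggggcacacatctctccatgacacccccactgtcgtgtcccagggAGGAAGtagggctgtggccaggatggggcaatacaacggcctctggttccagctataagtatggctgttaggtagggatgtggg
Ngp: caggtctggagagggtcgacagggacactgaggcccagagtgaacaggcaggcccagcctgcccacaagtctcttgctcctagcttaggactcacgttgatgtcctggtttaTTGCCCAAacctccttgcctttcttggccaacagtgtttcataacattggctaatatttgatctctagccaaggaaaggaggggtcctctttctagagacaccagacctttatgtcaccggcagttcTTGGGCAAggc
S100a9: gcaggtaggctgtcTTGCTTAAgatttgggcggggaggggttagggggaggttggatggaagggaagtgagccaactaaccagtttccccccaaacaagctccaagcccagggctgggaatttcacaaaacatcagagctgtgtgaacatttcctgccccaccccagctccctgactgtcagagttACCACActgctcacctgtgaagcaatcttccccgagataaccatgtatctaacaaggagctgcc

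The C/EBP letters matched in 3 of the 9 windows, those of Ngp, Ltf and S100a9, all late genes, and in 9.56% of all 32851 promoter windows of the same length. The windows of Camp and S100a8, also late genes, held no such match. Ngp held 2 matches, beginning 138 and 11 bases before the start. The Ets/PU.1 letters matched in 7 of the 9, including all 4 early genes, and in 29.5% of all windows. The Runx letters matched in Ctsg and S100a9, and in 14.0% of all windows. No 2 matches overlapped. A match is a description of these letters and not a binding site, and no match says only that the letters are not in this window.

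Of the 10 members, 8 reached 1 FPKM in at least 3 libraries and entered the test over all genes, and Camp and S100a9 did not. None of the 8 passed (limma, adjusted p under 0.05; 0 at an unadjusted p under 0.05), where 0.75% of all genes tested did, and nothing is read from this count because the members were chosen on these values. Against the highest of the other 5 libraries, labelled-deficient replicate 3 stood at 1.67 to 2.41 times for the early genes, 187 times for Ngp, 12.3 times for S100a9 and 1.65 times for Ltf. For Prg2 it was at 48.7 times WT replicate 1, the next highest by FPKM, but the WT replicate 3 level of Prg2 is not known (bounds of 0 to 30933 FPKM). In all, 8 of the 10 members, Prg2 included, were highest by FPKM in that library, where 20.3% of all genes tested were. It was 0.387 times the highest other library for Camp and 0.743 times for S100a8, the 1 member highest in WT replicate 3, where 28.6% of all genes tested were highest.

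Early and late genes were next compared within each library. The summed FPKM of the 4 early genes was 81.4, 129 and 1143 in labelled-deficient replicates 1 to 3 and 122, 306 and 545 in WT replicates 1 to 3. The summed FPKM of the 5 late genes was 5.33, 5.94 and 704 in the libraries labelled deficient and 2.26, 7.52 and 58.4 in WT. The late sum was thus 6.55%, 4.60% and 61.7% of the early sum in the libraries labelled deficient, against 1.86%, 2.46% and 10.7% in WT. Early transcripts exceeded late ones in all 6 libraries, and the ratio of the sums was lowest in labelled-deficient replicate 3, at 1.62, and highest in WT replicate 1, at 53.9.

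On the log scale the early mean exceeded the late mean by 3.01, 3.96 and 2.70 in the libraries labelled deficient and by 4.03, 4.52 and 4.78 in WT. The groups did not overlap in this difference, although labelled-deficient replicate 2 and WT replicate 1 were close together. They did overlap in the ratio of the sums, early over late. That ratio was 15.3, 21.7 and 1.62 in the libraries labelled deficient and 53.9, 40.7 and 9.33 in WT. Nothing is read from the separation on the log scale, since the members were chosen on these values. The group difference was -1.22 with a within-group SD of 0.54, and -0.96 without labelled-deficient replicate 3. The late mean lay at 0.34 to 0.91 in the first 2 replicates of each group, near the lowest value it can take, so there the contrast between early and late genes mostly followed the early level. The late mean itself differed by 1.11 between the groups (within-group SD 1.93) and by -0.38 without labelled-deficient replicate 3.

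**Figure D3:**
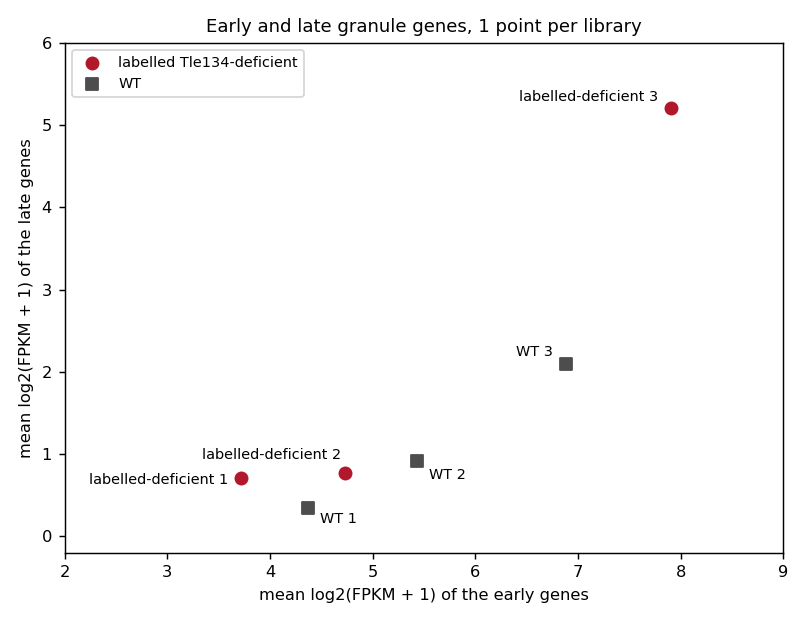
Mean log2(FPKM + 1) of the late genes (vertical axis) against that of the early genes (horizontal axis), 1 point per library, circles for the libraries labelled deficient and squares for WT. Labelled-deficient replicate 3 lies farthest out on both axes, with an early mean of 7.91, and WT replicate 3 is next, at 6.88.

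The scale on which libraries are compared mattered for the order of the early genes. With size factors from the median ratio over genes, the early sum was 82.8, 140.4 and 985 in the libraries labelled deficient and 145, 332 and 443 in WT. Replicate 3 of each group remained highest, while labelled-deficient replicate 2 then lay below WT replicate 1. With FPKM rescaled to a common total over the loci with a symbol, the sums were 51.6, 231 and 1475 in the libraries labelled deficient and 114, 1141 and 211 in WT, so that WT replicate 2 took the place of WT replicate 3. Mpo was then highest in WT replicate 2, at 866 rescaled units, next to 759.9 in labelled-deficient replicate 3. The totals used in that rescaling ran from 268034 to 2.58e+06 FPKM and include 1 to 9 loci above 10000 FPKM per library.

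Prg2 gave the highest level of any member, in labelled-deficient replicate 3. It had 0, 25.4 and 1242 FPKM in the libraries labelled deficient and 25.5, 8.28 and 11.3 FPKM in WT, and the groups overlapped. In labelled-deficient replicate 3 it ranked 48th among the loci with a symbol and was 2.11 times Mpo, whereas it was 0 to 0.333 times Mpo in labelled-deficient replicates 1 and 2 and WT replicates 1 and 2. The WT replicate 3 value, with the bounds given above, is not usable as a level. With the upper bounds in place of FPKM, the log2 difference was -2.73 instead of 1.15, and it was 1.03 when WT replicate 3 was left out.

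Other eosinophil genes, listed with earlier results of these data known, were highest in the same library. Of 10 listed, 9 were above 0 somewhere, and all 9 had their highest value in labelled-deficient replicate 3, as did all 6 that entered the test, against 20.3% of all genes tested. The eosinophil-associated ribonuclease unit Ear6/Ear7 had 0.418, 4.50 and 893 FPKM in the libraries labelled deficient and 5.93, 0 and 0.251 FPKM in WT. Ear1 had 0, 4.28 and 541 FPKM against 0, 0.519 and 0 FPKM, and the unit Ear12/Ear2 had 9.96, 5.24 and 439.6 against 2.08, 0.643 and 15.4 FPKM. These ribonuclease genes are near-identical copies, so reads may be split among them. Prg3, a homologue of Prg2, had 5.90, 1.25 and 73.2 FPKM against 0, 1.31 and 0 FPKM in WT. Epx, the eosinophil peroxidase, reached 68.6 FPKM, Alox15, a lipoxygenase, 68.4 FPKM, Siglecf 23.0 FPKM and the eotaxin receptor gene Ccr3 9.59 FPKM in labelled-deficient replicate 3, with at most 4.24 FPKM in any other library. Alox15, Siglecf, Ccr3 and Il5ra were singled out after their values were seen.

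None of the 6 eosinophil genes tested passed over all genes (limma, adjusted p under 0.05; 2 at an unadjusted p under 0.05), where 0.75% of all genes did. Their median log2 difference was 2.84, against 0.04 over all genes tested, and 0.92 over the 3 that could be tested without labelled-deficient replicate 3. Il5ra, which encodes the interleukin-5 receptor chain of eosinophils and of some B cells, had 4.02, 7.94 and 15.3 FPKM in the libraries labelled deficient and 0, 0.171 and 0.664 FPKM in WT. Its groups did not overlap, and its log2 difference was 2.85 ± 0.56 (SE, limma adjusted p = 0.0574). Separation in that direction was seen for 8.67% of all genes tested. Il5ra reached 1 FPKM only in the libraries labelled deficient, so it entered the test only through them. It was also singled out after its values were seen, so nothing is read from the separation or the p-value. For Prg3 the log2 difference was 2.99 ± 1.08 (SE, limma adjusted p = 0.347).

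The other late granule genes of neutrophils were also mostly highest in labelled-deficient replicate 3. Of 11 other late granule genes measured, 9 had their highest value there, as did 4 of the 5 tested, against 20.3% of all genes tested. Ly6g was listed but matched no symbol. Retnlg, a resistin-like secreted protein of mouse neutrophils, had 0.533, 0 and 152 FPKM in the libraries labelled deficient and 0, 0.660 and 1.91 FPKM in WT. Pglyrp1, an antibacterial peptidoglycan-binding protein, had 8.04, 6.40 and 65.8 FPKM against 1.86, 0.970 and 13.7 FPKM, and haptoglobin (Hp) had 3.12, 1.74 and 38.6 against 0.759, 1.98 and 4.59 FPKM. Padi4, which citrullinates histones, reached 36.2 FPKM in that library. Other late genes stayed low in it, with lipocalin 2 (Lcn2) at 1.91 FPKM, Olfm4 at 1.44, Chil3 at 0.375 and Cd177 at 0.0566 FPKM. Mmp9, the gelatinase of tertiary granules, differed from the rest in being high in all 3 libraries labelled deficient, at 34.0, 14.4 and 21.4 FPKM against 7.77, 3.12 and 2.95 FPKM in WT. Its groups did not overlap, and its log2 difference of 2.13 ± 0.49 did not pass over all genes (SE, limma adjusted p = 0.101). Separation in that direction was seen for 8.67% of all genes tested. None of the 5 tested passed (1 at an unadjusted p under 0.05), and their median log2 difference was 1.31, against 0.52 over the 4 that could be tested without labelled-deficient replicate 3.

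Of 6 other early granule genes, 4 had their highest value in labelled-deficient replicate 3, against 20.3% of all genes tested. Ms4a3, a membrane protein of granulocyte-monocyte progenitors, had 0.778, 4.08 and 54.2 FPKM in the libraries labelled deficient and 2.82, 5.72 and 17.8 FPKM in WT. Serpinb1a, an inhibitor of elastase, cathepsin G and proteinase 3, varied far less, at 35.1, 29.6 and 45.5 FPKM against 11.8, 22.6 and 38.3 FPKM. Ctsc, the protease that activates these enzymes, had 20.9, 40.1 and 13.2 FPKM against 10.9, 14.4 and 19.7 FPKM. Prss57, a further granule serine protease, was at 0.563 to 5.18 FPKM in the libraries labelled deficient and at 1.11 to 2.68 FPKM in WT. None of the 4 tested passed the limma threshold over all genes (0 at an unadjusted p under 0.05; median log2 difference 0.30).

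**Figure D4:**
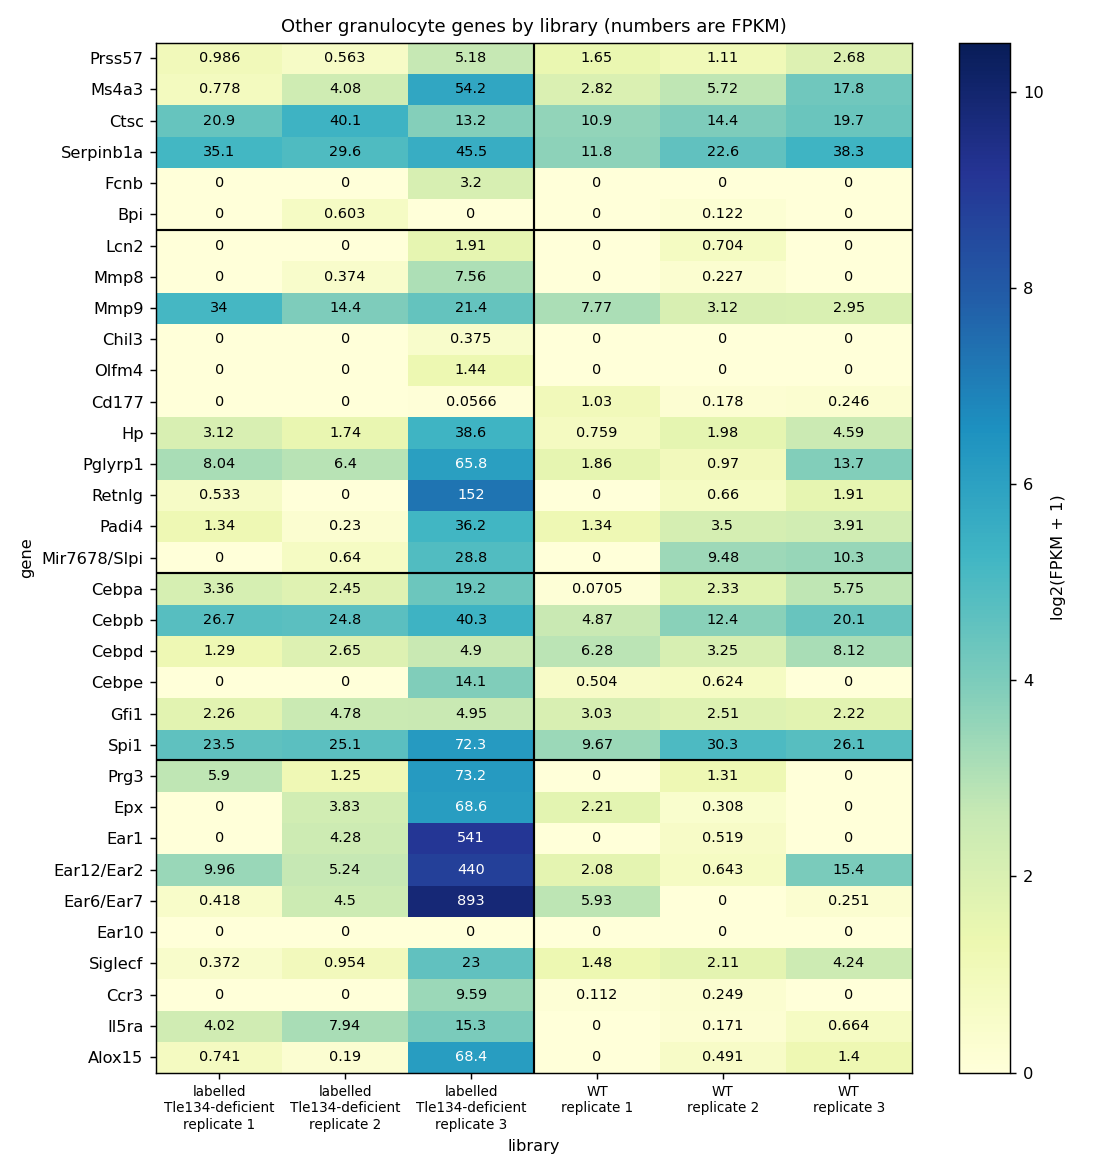
FPKM of other early granule genes, other late granule genes, granulocyte transcription factors and eosinophil genes (rows, in 4 blocks) in the 6 libraries (columns), with colour for log2(FPKM + 1) and the FPKM printed in each cell. The eosinophil block is darkest in labelled-deficient replicate 3, where Ear6/Ear7 reached 893 FPKM.

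Surface receptors of mature neutrophils were low in most libraries. Itgam (CD11b), which a lineage mixture often includes, had 1.46, 0.888 and 39.2 FPKM in the libraries labelled deficient and 1.18, 2.05 and 0.771 FPKM in WT. Csf3r, the receptor for granulocyte colony-stimulating factor, had 0, 0.476 and 8.82 FPKM against 0.444, 2.71 and 0.659 FPKM. The chemokine receptor gene Cxcr2 stayed at or under 2.35 FPKM and the formyl peptide receptor genes Fpr1 and Fpr2 at or under 0.310 FPKM in every library. Clec4e, a lectin receptor of activated phagocytes, had 0.442, 0.0605 and 1.04 FPKM against 1.56, 2.05 and 5.24 FPKM, and Il1r2, a decoy receptor, peaked in WT replicate 2 at 10.9 FPKM. Of the 9 genes, 2 were highest in labelled-deficient replicate 3, where 20.3% of all genes tested were. None of the 3 tested passed (limma, 1 at an unadjusted p under 0.05, median log2 difference -0.66).

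Transcription factors of the granulocyte lineage were also measured. Cebpe, needed in mouse for the late granule genes, had 0, 0 and 14.1 FPKM in the libraries labelled deficient and 0.504, 0.624 and 0 FPKM in WT; it was singled out after its values were seen. Cebpa, which starts the granulocyte programme, had 3.36, 2.45 and 19.2 FPKM against 0.0705, 2.33 and 5.75 FPKM. Spi1 (PU.1) had 23.5, 25.1 and 72.3 FPKM against 9.67, 30.3 and 26.1 FPKM in WT, and Cebpd 1.29, 2.65 and 4.90 against 6.28, 3.25 and 8.12 FPKM. Cebpb was above every WT library in all 3 libraries labelled deficient, at 26.7, 24.8 and 40.3 FPKM against 4.87, 12.4 and 20.1 FPKM, with a log2 difference of 1.39 ± 0.51 that did not pass over all genes (SE, limma adjusted p = 0.359). Separation in that direction was seen for 8.67% of all genes tested. None of the 5 tested passed (limma, 1 at an unadjusted p under 0.05, median log2 difference 0.79). Of the 6, 5 were highest in labelled-deficient replicate 3, against 20.3% of all genes tested.

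Genes of other cells that the gate could hold are given beside these values, and their part in the result was not tested. The summed FPKM of 15 monocyte and macrophage genes was 62.0 to 276 in the libraries labelled deficient and 63.4 to 292 in WT, highest in replicate 3 of both groups. Its members differed between these 2 libraries. Ly6c2 had 120 FPKM in labelled-deficient replicate 3 and 59.2 in WT replicate 3, but C1qa, C1qb and C1qc had 1.73, 1.85 and 0.850 against 23.7, 29.6 and 23.5 FPKM. Of 13 tested, 0 passed (limma, 5 at an unadjusted p under 0.05). Those 5 were C1qa, C1qb and C1qc, lower in the libraries labelled deficient, and Adgre1 and Ms4a6c, higher there. The sum of 10 mast cell and basophil genes was 2.27, 9.99 and 235 in the libraries labelled deficient and 111, 52.9 and 283 in WT, and 0 of 9 passed (limma; 4 at an unadjusted p under 0.05; 1, in the lower direction, passed without labelled-deficient replicate 3 and 1 with median-ratio scaling). Of the 10, 3 were highest in labelled-deficient replicate 3, where 20.3% of all genes tested were. Among those 3, the basophil protease gene Prss34 had 0.205, 5.58 and 139 FPKM in the libraries labelled deficient against 9.96, 0.893 and 0.247 FPKM in WT. Mcpt8 was highest in WT replicate 3, with 0.331, 0.905 and 16.3 FPKM against 1.94, 1.34 and 24.7 FPKM in WT. So was Cpa3, with 0.992, 0.622 and 21.5 FPKM against 54.4, 35.0 and 110 FPKM in WT. The mast cell protease genes Cma1 and Tpsb2 were listed at 0 in all 3 libraries labelled deficient, against 1.63 to 55.2 FPKM and 3.66 to 17.5 FPKM in WT. Mcpt4 had 0, 0 and 0.0921 FPKM against 21.8, 1.40 and 57.0 FPKM in WT. The sum of 9 B-lineage genes, listed with earlier results of these data known, was 599 to 959 against 74.9 to 129 FPKM. Of the 9, 8 rose in the libraries labelled deficient at a limma adjusted p under 0.05, where 0.642% of all genes did. This count depended on the fit: it was 5 of 9 without labelled-deficient replicate 3, 0 without labelled-deficient replicate 1 or 2 or when WT replicate 1 was left out, 0 with the rescaling over loci with a symbol or with no filter, and 1 with the replicate block or when WT replicate 2 was left out. The median log2 difference of the list was 3.34 to 3.85 in these fits. Labelled-deficient replicate 3, the highest in granule genes, was the lowest of its group in B-lineage genes and had the lowest T-lineage sum of all libraries, at 195 FPKM against 294 and 689 in the other 2 and 412 to 1119.5 in WT. None of 9 T-lineage genes and none of 5 progenitor genes passed (limma; 2 and 1 at an unadjusted p under 0.05). The progenitor sum, which includes Kit, Cd34 and Fcgr3, was 37.6, 50.2 and 166 FPKM in the libraries labelled deficient and 84.0, 168 and 164 FPKM in WT, lowest in labelled-deficient replicates 1 and 2. Fcgr3, an Fc receptor gene, made up 86.5 FPKM of it in labelled-deficient replicate 3 and at most 17.3 FPKM in any other library. Cd34 had 19.4, 9.39 and 33.9 FPKM against 35.8, 95.3 and 84.9 FPKM in WT. Kit had 9.09, 21.5 and 33.9 FPKM against 31.8, 36.5 and 37.1 FPKM. The 1 erythroid gene tested, Alas2, was at 0.372 to 5.00 FPKM against 0 to 9.02 FPKM and did not pass (limma; unadjusted p = 0.966).

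The genes with the most similar pattern over the 6 libraries were found by the root-mean-square distance between centred log2(FPKM + 1) profiles, among 7763 genes with a mean of at least 5 FPKM. Nearest to the early mean was Ms4a3, at a distance of 0.25, against a median of 1.42 over all genes compared. Plac8, Alox5ap, which serves leukotriene synthesis, Wipi1 and Rab44 followed at 0.31 to 0.46. Plac8 had 37.2, 71.4 and 451 FPKM in the libraries labelled deficient and 64.2, 95.0 and 213 FPKM in WT. Nearest to the late mean were glutathione reductase (Gsr), at 0.25, and Hp, followed by Fam32a, Pnpt1 and Zmat2, which are not known as granule genes. Gsr had 9.78, 8.67 and 156 FPKM against 6.67, 10.3 and 17.4 FPKM in WT. Nearest to Prg2 were Prss34 and Epx at 1.21 and 1.32, then Lilr4b, the Ear6/Ear7 unit and Dyrk3, against a median of 3.06. All 6 points of a profile are the libraries described above, so these likenesses rest on 6 values each, and for Prg2 1 of the 6 is the WT replicate 3 value that is not usable as a level.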

How the data were processed

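RNA-seq was deposited for 6 libraries of sorted DN1 thymocytes, 3 labelled Tle134-deficient and 3 WT. The submitters' processing notes name, in no stated order, build mm9, featureCounts 2.0.1, TopHat2 2.1.1 and Trimmomatic 0.38. Per the file headers, the deposited tables hold FPKM for each locus between 2 bounds, in the layout of Cufflinks. Not given in the sources used here are its version, the annotation and any use of strand. Of the loci, 67.5% to 87.0% per library carry no symbol.

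FPKM was summed by gene symbol, and symbols sharing a row were joined (23401 units). No member shared a row. Unnamed loci within members, at 19.2 to 309213 FPKM, were not added. Fragments were implied by taking each bound as 2 SD of a count, which covers counting error only; no library total is known, and reads fitting several loci would lower these numbers. Genes at 1 FPKM or more in 3 libraries were fitted with limma 3.58.1 (R 4.3.3) on log2(FPKM + 1), with a trend, a robust step, group as the only term and Benjamini-Hochberg adjustment. Differences are the libraries labelled deficient minus WT, and this scale understates changes of low genes. The fit was also run on simulated data drawn independently for each library. Those data lack the shared deviation of replicate 3 of each group, so nothing is read from that run. Nothing says that the libraries came from separate animals, so p-values measure the spread between libraries, which may be technical. Same-numbered libraries did not qualify as pairs.

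Of the granulocyte lists (other early granule, other late granule, transcription factors, neutrophil surface, eosinophil), genes past the threshold and the 4 highest by mean FPKM were to be named; Lcn2, Olfm4, Chil3, Cd177, Cxcr2, Fpr1, Fpr2, Padi4, Cebpe, Alox15, Siglecf, Ccr3 and Il5ra were added after their values were seen. So were named the 5 genes nearest in profile to the early mean, the late mean and Prg2. Monocyte, mast cell and basophil, B-lineage, T-lineage, erythroid and progenitor lists are given mainly as sums. Up to 3 genes of each with the smallest limma p were to be named, but not all of these are. Mcpt8, Cma1, Ly6c2 and Fcgr3, among others, were named outside that rule. The members and lists were chosen with earlier results of these data known. Alternatives were another pseudocount, no filter, other scalings, the largest row, the bounds, a plain limma fit, a replicate block and leaving out libraries. Python 3.11.15, pandas 2.3.3 and matplotlib 3.10.9 were used.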

Additional observations from a re-analysis of the deposited data

How the results depend on the processing

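The 83 genes past the threshold over all genes became 53 with a pseudocount of 0.1, 4 with FPKM rescaled over loci with a symbol, 55 with limma without trend and robust step, 0 in limma without a filter on low values (1181 at an unadjusted p under 0.05) and 2 with the replicate block. Leaving out 1 library gave 0 to 69, with 0 without labelled-deficient replicate 1, labelled-deficient replicate 2 or WT replicate 1 (limma; 899, 911 and 800 at an unadjusted p under 0.05), 36 without labelled-deficient replicate 3 and 2 when WT replicate 2 was left out. The replicate numbers were not treated as pairs: deviations of same-numbered libraries correlated at 0.084 to 0.182, 2 of 3 above 0.1, though all 6 libraries correlated best with their own number, a hint from the data and not from the design. Leaving out 1 library, the early difference ran from -1.34 to 0.75, the late difference from -0.38 to 1.87, the early minus late difference from -1.59 to -0.96 and the Prg2 difference from -1.49 to 3.65. The early difference turned positive without labelled-deficient replicate 1 or 2 or WT replicate 3, and the late and Prg2 differences turned negative without labelled-deficient replicate 3. Early minus late was below 0 under all 13 alternatives run. Its groups did not overlap, so leaving out libraries could not change that sign. The largest row gave the main value again because each member has 1 row. Nothing is therefore read from this count. Prg2 came to -2.73 with the deposited upper bounds. Without replicate 3 in either group, chosen after seeing the data, the differences were -0.68 early, 0.11 late, -0.79 early minus late and -1.61 for Prg2. Some late-gene values rest on few implied fragments, such as Camp in labelled-deficient replicate 3 (11.9) and Ltf (9) and Ngp (1) in WT replicate 3, which limits what they show.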
